A study of Bos taurus with 24 samples.

Results

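Solute carriers are the proteins that move amino acids, sugars, nucleotides, ions and vitamins across the membranes of a cell, and their genes carry symbols that begin with SLC and a family number. The genes described here were the rows of the expression table whose symbol began with SLC and a digit, with the mitochondrial family SLC25 left out. They numbered 196 of the 11306 genes of the table. They belonged to 44 families, lay on 30 chromosomes, and 193 of them were found under the same symbol in RefSeq. The other 3 were found through an older symbol (SLC35E2, SLC9A3R1 and SLC9A3R2). A gene was tested only where it was over 0.1 FPKM (fragments per kilobase of transcript, scaled to the mapped fragments of the library) in at least 1 library, which 146 of the 196 passed, against 9526 of all 11306 genes. SLC8A1 was just inside this limit, with a highest value of 0.101 FPKM, and SLC9A5 just outside it, with 0.0993 FPKM.

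RNA was sequenced from 24 libraries of bovine oocytes, 6 in each of 4 groups: oocytes at the germinal vesicle stage (GV, arrested in the first meiotic prophase) and at metaphase II (MII, the stage that is fertilised), each collected in May, called spring, and in July, called summer. The donors were crossbred Angus-based Bos taurus beef cows, 3 to 6 years old, that were neither lactating nor pregnant and were kept on grass in Louisiana, and the 2 seasons differed in the weather and in everything else that changes between these months. Oocytes were taken by ovum pick-up and stripped of cumulus cells with hyaluronidase and vortexing, and only the MII oocytes had been matured in vitro, so that stage and culture cannot be told apart. Each library is taken as a pool of 4 oocytes of 1 cow, as the methods state, although the labels speak of single cells. FPKM values give the share of the captured polyadenylated RNA per length of transcript, and in such bulk samples a lower amount of RNA per cell, fewer cells with the RNA and a shorter poly(A) tail cannot be told apart.

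An oocyte is surrounded by cumulus cells and depends on them for much of its uptake: small molecules such as some amino acids and pyruvate reach it through gap junctions, and other substrates enter through carriers in its own membrane. The fully grown oocyte is transcriptionally quiet, and its stored RNAs are translated, deadenylated or degraded as meiosis resumes. Zinc is taken up by oocytes during maturation and held in vesicles, and bicarbonate, sodium and proton exchangers set the pH of the cell.

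The libraries differed in depth, as estimated from the deposited values. Relative to the first spring GV library, 3 were shallow, spring GV pool 6 at 0.0565, spring MII pool 6 at 0.149 and summer GV pool 2 at 0.393, and the deepest, summer GV pool 5, was at 6.51. Oocyte markers (13 of 17 listed were in the table) summed to between 484 and 1925 FPKM. The highest sum was that of summer GV pool 2, where the group median was 881 FPKM. The summed level of 18 cumulus cell markers lay between 13.5 and 114 FPKM and was highest in spring GV pool 3, summer GV pool 2, spring MII pool 6 and summer MII pool 6 of their groups, at 114, 75.2, 52.8 and 55.1 FPKM against group medians of 31.9, 24.4, 23.2 and 22.2 FPKM. Within the cumulus list FSHR, CYP19A1 and NR5A1 had group medians near the lowest value of the table, 0.01 FPKM, while STAR had group medians of 14.8 to 24.5 FPKM, the highest of the list, and PTGS2 had 1.20 to 2.93 FPKM. The highest STAR values were 64.3 FPKM in summer GV, 40.0 FPKM in spring MII and 45.6 FPKM in summer MII. In these groups the highest marker sums were thus largely 1 gene. In spring GV the highest STAR value was 34.92 FPKM, against a highest marker sum of 114 FPKM. There INHA, FST, AMH and CYP11A1 had highest values of 37.2, 20.32, 13.43 and 11.97 FPKM. Their spring GV medians were 0.4054, 0.03045, 0.1269 and 1.439 FPKM. Which pools held these highest values is not given here. HAS2 moved with the stage, from medians of 0.277 and 0.351 FPKM in spring and summer GV to 1.45 and 1.77 FPKM in MII oocytes, and was called higher in both seasons (log2 fold changes 1.06 and 1.04, limma adjusted p = 0.00277 and 0.00557). Of the 14 cumulus markers tested, no other was called in either season, and by the adjusted p GREM1 fell in summer. The part of cumulus cells in the maturation results below was not tested.

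Most solute carriers were low in these oocytes. The median of the 196 mean levels was 0.0928 FPKM, against 0.296 FPKM for all genes of the table. A mean over 10 FPKM was reached by 3 carriers, 24 lay between 1 and 10 FPKM, and 169 were under 1 FPKM. Only 37 were over 0.1 FPKM in all 24 libraries.

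The 3 abundant carriers move cationic amino acids, riboflavin and a substrate that is not settled. SLC7A3, a carrier of arginine and lysine on chromosome X (85010185 to 85015655, plus strand), overlaps the span of RLIM on the same strand, which had group means of 0.0104 to 0.0109 FPKM. It had a mean of 71.5 FPKM and took between 14.8% and 67.0% of the summed FPKM of all 196 members in a library, with a median of 37.6%. SLC52A2, a riboflavin carrier, had a mean of 23.0 FPKM. SLC35E3, a member of the nucleotide sugar carrier family with no settled substrate, had a mean of 13.7 FPKM. The 3 together made up between 29.7% and 75.5% of the members' sum. Below them came SLC35B1 at 6.32 FPKM, the neutral amino acid carrier SLC1A5 at 5.18 FPKM, SLC16A13 at 4.53 FPKM and SLC10A4 at 4.05 FPKM. The summed FPKM of the members had group medians of 225 FPKM in spring GV, 184 FPKM in summer GV, 174 FPKM in spring MII and 193 FPKM in summer MII oocytes, and the ranges of the 4 groups overlapped.

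**Figure D1:**
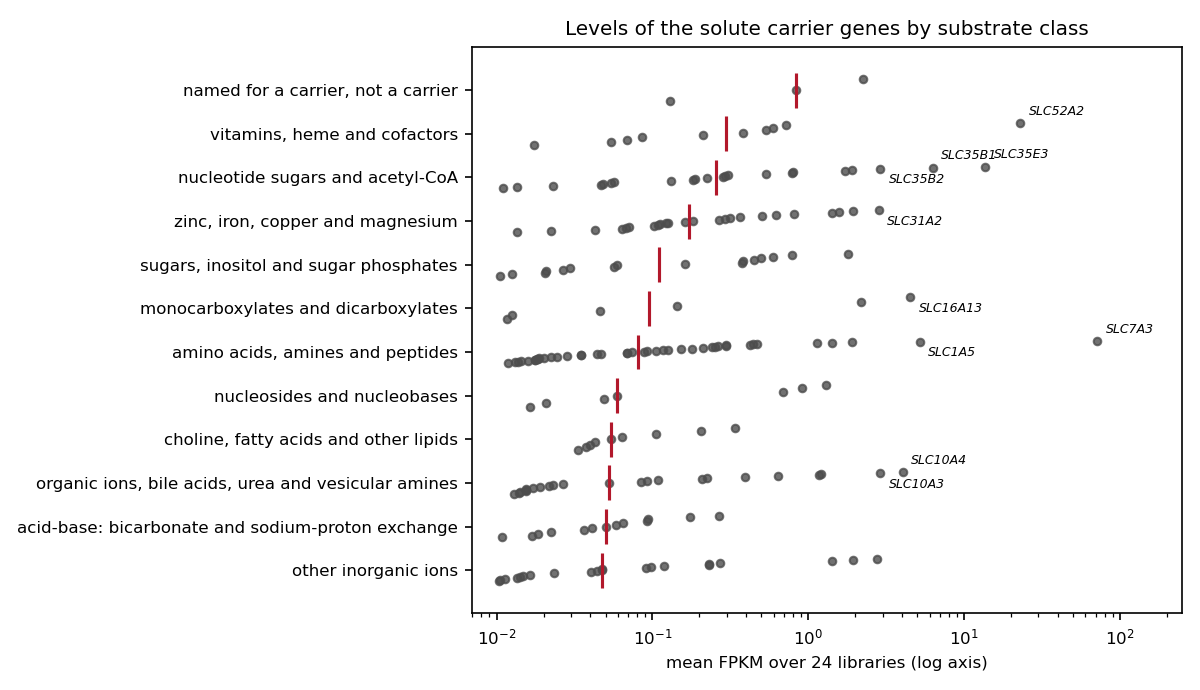
Mean FPKM over 24 libraries (horizontal log axis) of each of the 196 solute carrier genes, 1 point per gene, in 12 classes by substrate, with the class median as a red bar and the 10 most abundant genes named. Class medians lie between 0.0472 and 0.831 FPKM, and SLC7A3, SLC52A2 and SLC35E3 stand to the right of all others.

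By substrate, the vitamin, heme and cofactor carriers had a median level of 0.297 FPKM (10 genes), the nucleotide sugar carriers 0.254 FPKM (22 genes), the zinc, iron, copper and magnesium carriers 0.172 FPKM (24 genes) and the sugar carriers 0.111 FPKM (16 genes). The largest class, 42 carriers of amino acids, amines and peptides, had a median of 0.0808 FPKM although it held SLC7A3. The acid-base exchangers (13 genes) had a median of 0.0503 FPKM and none with a mean over 1 FPKM. The class with the highest median held 3 genes that are named for a carrier without being one, such as SLC7A6OS at 2.26 FPKM and the scaffold gene SLC9A3R1 at 0.831 FPKM.

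The first question was which carriers changed between GV and MII oocytes. Following the thresholds of the study, a gene was called where limma gave p under 0.05 without adjustment and the fold change on the log2(FPKM + 1) scale was over 2, and it is said to have risen or fallen only where its Benjamini-Hochberg adjusted p, over all 9526 genes tested, was also under 0.05. On this scale fold changes of genes under 1 FPKM are understated. In spring, 5 carriers of 146 tested were called lower in MII oocytes (3.42% of the members, background of all genes tested 8.25%) and 1 higher (0.685%, background 3.57%). In summer, 5 were called lower (3.42%, background 9.26%) and 1 higher (0.685%, background 2.2%). The 5 called lower were the same genes in both seasons (the overlap over all genes is not given here): SLC35B1, SLC10A4, SLC16A13, SLC2A8 and SLC51B. These shares are read beside the levels of the genes: among genes with a mean of at least 1 FPKM, 18.5% of the 27 members were called lower in each season, against 20.7% of all genes in spring and 23.2% in summer. The median log2 fold change of the members, −0.03 in spring and −0.02 in summer, was that of all genes tested.

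SLC35B1 encodes the exchanger that brings ATP into the endoplasmic reticulum. It lies on chromosome 19 (37546941 to 37553771, plus strand, UMD3.1.1). Its lowest, median and highest values were 6.09, 11.98 and 16.5 FPKM in spring GV and 9.14, 10.6 and 11.4 FPKM in summer GV oocytes. In MII oocytes they were 0.955, 1.79 and 3.08 FPKM in spring and 0.734, 1.78 and 2.53 FPKM in summer. Every GV pool was higher than every MII pool of its season. Mean FPKM was 6.26-fold lower in MII oocytes in both seasons, and the log2 fold changes were −2.08 ± 0.28 (SE) in spring and −2.14 ± 0.18 in summer (limma adjusted p = 0.000359 and 8.38e-06). The exact two-sided permutation test, with 924 ways to assign the 12 libraries, gave p = 0.00216 in each season, the smallest value this design allows.

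SLC10A4 belongs to the bile acid carrier family and is known from synaptic vesicles. It lies on chromosome 6 (68813854 to 68819852, plus strand). Its lowest, median and highest values fell from 4.29, 5.96 and 11.8 FPKM in spring GV to 0.656, 0.891 and 1.46 FPKM in spring MII oocytes. In summer they were 4.47, 6.49 and 13.9 FPKM in GV and 0.249, 0.701 and 1.59 FPKM in MII oocytes. The ranges did not overlap in either season, and mean FPKM was 7.41-fold and 9.34-fold lower in MII oocytes. The log2 fold changes were −1.99 ± 0.23 and −2.19 ± 0.26 (limma adjusted p = 0.000127 and 7.41e-05).

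SLC16A13 is a monocarboxylate carrier of lactate and related acids, on chromosome 19 (27455597 to 27459090, plus strand). It ranged from 2.28 to 16.4 FPKM (median 7.63) in spring GV and from 4.25 to 13.5 FPKM (median 6.14) in summer GV oocytes. The MII ranges were 0.707 to 2.10 FPKM (median 1.07) in spring and 0.283 to 2.47 FPKM (median 1.21) in summer, below every GV pool of the same season. The log2 fold changes were −1.89 ± 0.36 and −1.89 ± 0.32 (limma adjusted p = 0.00305 and 0.000785).

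SLC2A8 encodes the glucose carrier GLUT8, which sits on internal membranes in most cells, and lies on chromosome 11 (98161639 to 98170671, plus strand). In GV oocytes its range was 0.853 to 6.16 FPKM (median 2.70) in spring and 1.92 to 5.69 FPKM (median 2.58) in summer. In MII oocytes it was 0.0764 to 0.868 FPKM (median 0.382) in spring and 0.129 to 0.742 FPKM (median 0.381) in summer. The spring ranges met at their ends, with the lowest GV pool just under the highest MII pool, and the summer ranges were apart. Mean FPKM was 7.48-fold and 8.52-fold lower in MII oocytes, and the log2 fold changes were −1.43 ± 0.32 and −1.54 ± 0.22 (limma adjusted p = 0.00696 and 0.000297).

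SLC51B is the beta subunit of the organic solute and steroid exporter and works with the alpha subunit SLC51A. It lies on chromosome 10 (11930744 to 11941333, plus strand), where its span overlaps RASL12 on the other strand. The lowest, median and highest values were 0.862, 2.20 and 3.23 FPKM in spring GV and 1.21, 1.73 and 2.97 FPKM in summer GV oocytes. In MII oocytes they were 0.0893, 0.294 and 0.511 FPKM in spring and 0.197, 0.466 and 0.585 FPKM in summer. No MII pool reached the lowest GV pool of its season. The log2 fold changes were −1.23 ± 0.20 and −1.05 ± 0.17 (limma adjusted p = 0.00103 and 0.000676). In summer the fold was close to the threshold, and the log2 fold change was −0.96 without summer GV pool 4 or pool 6 and −1 after rounding without summer MII pool 5, where the gene was no longer called. With quantile normalization it was −0.87, also not called (limma adjusted p = 0.00240). RASL12 had means of 0.571 ± 0.330 FPKM (SD, n = 6) in spring GV and 0.106 ± 0.0828 FPKM in spring MII oocytes, and since the library kit does not mark the strand, reads of the overlapping part cannot be told apart. SLC51A was low, with a mean of 0.109 FPKM, and its log2 fold changes were 0.20 in spring and 0.07 in summer (limma adjusted p = 0.123 and 0.255).

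The 5 genes called lower lay on chromosomes 6, 10, 11 and 19 and came from 5 families. Their spans on the genome were 3494 to 10590 bases with a median of 6831 bases, against a median of 18147 bases for the 146 members tested. This was seen after the genes were chosen and was given no test.

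**Figure D2:**
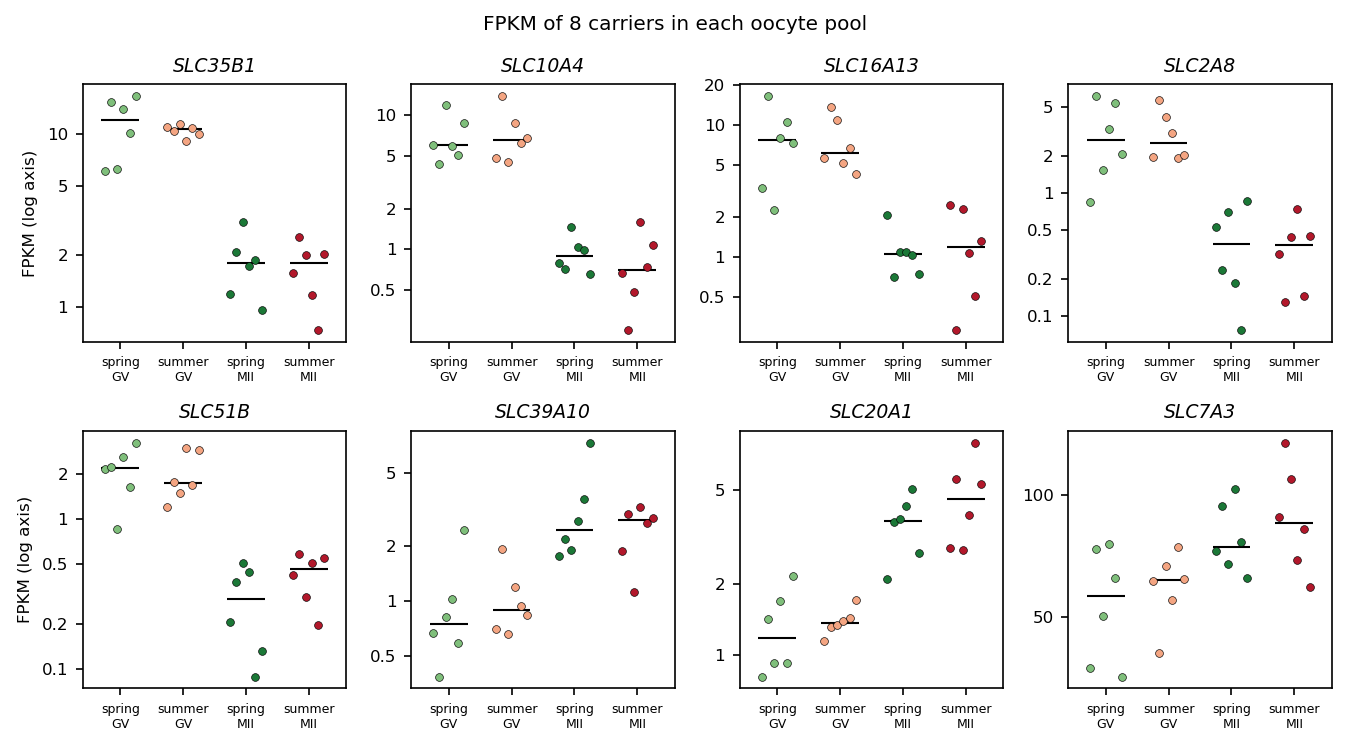
FPKM (vertical log axis, a different range in each panel) of 8 carriers in each of the 24 oocyte pools, 1 point per pool in the order of pool number, in the 4 groups on the horizontal axis, with the group median as a bar. SLC35B1, SLC10A4, SLC16A13, SLC2A8 and SLC51B are lower in MII oocytes of both seasons, SLC39A10 and SLC20A1 are higher, and the SLC7A3 ranges of GV and MII oocytes overlap.

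A zinc carrier and a phosphate carrier had an adjusted p under 0.05 and a higher level in MII oocytes in both seasons. SLC39A10 encodes the zinc importer ZIP10 (chromosome 2, 84734002 to 84773233, plus strand). Its lowest, median and highest values were 0.388, 0.747 and 2.44 FPKM in spring GV and 1.76, 2.45 and 7.33 FPKM in spring MII oocytes. In summer they were 0.661, 0.893 and 1.92 FPKM in GV and 1.13, 2.76 and 3.25 FPKM in MII oocytes. The ranges overlapped in both seasons, in spring through GV pool 6, the shallowest library. The log2 fold changes were 1.05 ± 0.30 in spring and 0.75 ± 0.20 in summer (limma adjusted p = 0.0216 and 0.0150), and the gene was called in spring. The spring result was near its limits. The log2 fold change was 0.96 without spring GV pool 2 and 1 after rounding without spring GV pool 5, where the adjusted p was also lost (limma adjusted p = 0.0518 and 0.0505). It was 0.83 without spring MII pool 6 and 0.92 with median-of-ratios scaling, both short of the fold threshold.

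SLC20A1, a sodium-dependent phosphate carrier, lies on chromosome 11 (46218716 to 46232125, plus strand). It had 0.807, 1.17 and 2.17 FPKM (lowest, median, highest) in spring GV and 2.09, 3.72 and 5.05 FPKM in spring MII oocytes. In summer it had 1.15, 1.37 and 1.71 FPKM in GV and 2.79, 4.61 and 7.98 FPKM in MII oocytes, with no overlap. Mean FPKM was 2.72-fold higher in MII oocytes in spring and 3.42-fold in summer. The log2 fold changes were 0.98 ± 0.21 and 1.20 ± 0.21 (limma adjusted p = 0.00593 and 0.00110). The gene was called in summer and stayed just short of the fold threshold in spring, where it reached 1.08 without spring GV pool 6, 1.09 without spring MII pool 1, 1.04 without spring MII pool 6 and 1.03 without spring GV pool 4. SLC39A10 and SLC20A1 were called in 1 season each, and their naming here came after their values were seen. The maturation change, summer minus spring, differed by −0.30 ± 0.36 (SE) for SLC39A10 and by 0.22 ± 0.30 for SLC20A1 (limma adjusted p = 0.9998 for each), errors that leave room for differences of either sign.

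By the adjusted p alone, 13 members fell and 5 rose in spring (8.90% and 3.42%), beside 14.7% and 9.45% of all genes tested. In summer 26 fell and 7 rose (17.8% and 4.79%), beside 23.1% and 7.67% of all genes. The 12 members that fell in both seasons were 92.3% of those of spring and 46.2% of those of summer, and 2 members, SLC39A10 and SLC20A1, rose in both. The same overlap over all genes is not given here, so nothing particular to carriers is read from it. Of the 12 that fell in both, 4 (SLC19A1, SLC35F6, SLC38A3 and SLC9A3) were over 0.1 FPKM only in GV libraries. So were 4 of the 13 of spring, the same genes, and 8 of the 26 of summer, these with SLC27A1, SLC44A3, SLC4A3 and SLC5A1. They entered the test through the stage where they were higher. Their values below are a description, and nothing rests on the counts that include them. Both comparisons have their own 12 libraries. The counts of higher genes moved with the scaling and with single pools. After quantile normalization 21 rose and 12 fell in spring and 34 rose and 20 fell in summer, which turned the balance from 27.8% and 21.2% higher to 63.6% and 63.0% higher. The number that rose in spring was 3 without GV pool 5 and 9 without GV pool 6 or MII pool 6, and in summer 4 without GV pool 1, 3 or 5 or MII pool 5 and 14 without GV pool 2. Ranges of the 6 libraries did not overlap for 10 members lower and 3 higher in MII oocytes in spring (backgrounds 8.98% and 4.65% of all genes) and for 18 lower and 1 higher in summer (backgrounds 14.7% and 3.07%).

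**Figure D3:**
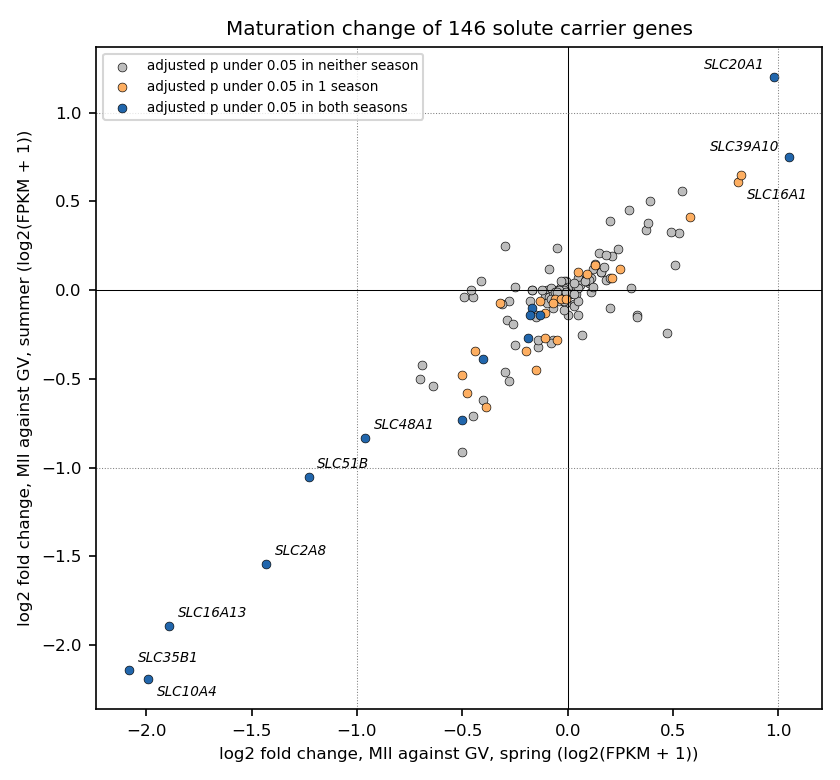
Log2 fold change of MII against GV oocytes, on the log2(FPKM + 1) scale, in spring (horizontal) and in summer (vertical) for the 146 solute carrier genes tested, coloured by whether the adjusted p was under 0.05 in neither, 1 or both seasons, with dotted lines at a fold change of 2. The 5 genes called lower in both seasons lie between −2.19 and −1.05, and most other genes lie near 0.

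Among amino acid carriers (29 of 42 tested), no gene was called, 2 fell in spring and 4 in summer, and none rose. Of all genes tested, 14.7% and 23.1% fell and 9.45% and 7.67% rose. SLC7A3 had lowest, median and highest values of 35.6, 56.3 and 75.7 FPKM in spring GV and 62.3, 74.7 and 103.9 FPKM in spring MII oocytes. In summer they were 40.8, 61.7 and 74.3 FPKM in GV and 59.2, 85.4 and 135 FPKM in MII oocytes. The ranges overlapped, and log2 fold changes of 0.54 ± 0.24 and 0.56 ± 0.22 did not pass the adjusted threshold (limma adjusted p = 0.116 and 0.0757). SLC1A5, which carries neutral amino acids such as glutamine, had means of 5.37 ± 1.91 FPKM (SD, n = 6) and 3.69 ± 2.06 FPKM in spring GV and MII oocytes, and 7.96 ± 5.71 and 3.70 ± 2.66 FPKM in summer. Its log2 fold changes of −0.50 and −0.91 did not pass either (limma adjusted p = 0.234 and 0.103), although the summer change reached −1.04, −1.05, −1.03 and −1.14 without GV pool 1, GV pool 5, MII pool 4 and MII pool 6, where the gene was called.

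The serotonin carrier SLC6A4 and the glutamine carrier SLC38A3 fell in both seasons. SLC6A4 had medians of 0.655 and 0.647 FPKM in spring and summer GV and 0.104 and 0.0849 FPKM in MII oocytes, with log2 fold changes of −0.50 and −0.73 (limma adjusted p = 0.00407 and 0.0132). SLC38A3 had medians of 0.123 and 0.0853 FPKM in GV and 0.0187 and 0.0158 FPKM in MII oocytes, and its ranges did not overlap in either season. It was over 0.1 FPKM only in GV libraries, so its values are a description. Its log2 fold changes were −0.17 and −0.10 (limma adjusted p = 0.0310 and 0.00292), and in spring the adjusted p was up to 0.0598 without GV pool 4 or 5 or any MII pool but pool 3. SLC6A9 and SLC6A6, the glycine and taurine carriers, were near the lowest value in every group, with highest values of 0.0302 and 0.0217 FPKM, and were not tested. The heavy chain SLC3A2, which brings several amino acid carriers to the cell surface, had group means between 1.12 and 1.61 FPKM, while its light chain partner SLC7A5 had group medians between 0.0251 and 0.0403 FPKM, and neither passed the test.

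Of 13 sugar carriers tested, 12 had a log2 fold change below 0 in spring and 10 in summer, where 5312 and 5519 of all 9526 genes tested lay below 0. The test was passed by 1 in spring (SLC2A8) and 5 in summer (SLC2A8, SLC2A1, SLC5A1, SLC5A9 and SLC37A4), all lower in MII oocytes, beside 14.7% and 23.1% of all genes that fell. SLC5A1 was over 0.1 FPKM only in GV libraries. After quantile normalization SLC2A1 did not pass in summer (limma adjusted p = 0.114). The summed FPKM of the 16 sugar carriers had medians of 8.74 FPKM in spring GV and 2.497 FPKM in spring MII oocytes, and of 6.40 and 2.28 FPKM in summer, and SLC2A8 had the highest mean level among them. SLC2A1, the glucose carrier GLUT1, had lowest, median and highest values of 0.140, 0.219 and 0.414 FPKM in spring GV and 0.0819, 0.145 and 0.212 FPKM in spring MII oocytes. In summer they were 0.0938, 0.173 and 0.303 FPKM in GV and 0.0515, 0.0660 and 0.123 FPKM in MII oocytes. The log2 fold change was −0.11 ± 0.06 in spring and −0.13 ± 0.04 in summer (limma adjusted p = 0.182 and 0.0159). SLC2A6, known as a lysosomal sugar carrier, had medians of 0.965 and 0.980 FPKM in GV and 0.313 and 0.261 FPKM in MII oocytes, with no adjusted p under 0.05 (0.227 and 0.0871).

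Carriers of monocarboxylates moved in both directions. SLC16A1, the lactate and pyruvate carrier MCT1, had lowest, median and highest values of 0.760, 1.13 and 1.63 FPKM in spring GV and 1.51, 2.53 and 5.03 FPKM in spring MII oocytes. The spring log2 fold change was 0.81 ± 0.21 (limma adjusted p = 0.0150). In summer the medians were 1.33 and 3.22 FPKM and the log2 fold change 0.61 ± 0.30 (limma adjusted p = 0.140). SLC16A3, the carrier MCT4, had spring medians of 0.190 FPKM in GV and 0.0424 FPKM in MII oocytes, with a log2 fold change of −0.32 in spring and −0.07 in summer (limma adjusted p = 0.0483 and 0.552). Its spring result was lost without any 1 of 9 of the 12 libraries, every one but GV pools 1, 4 and 6, with an adjusted p of up to 0.0996.

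Among 19 nucleotide sugar carriers tested, 1 rose and 3 fell in spring, and 2 rose and 4 fell in summer. Of all genes tested, 9.45% rose and 14.7% fell in spring and 7.67% and 23.1% in summer. Nothing particular to the class is read from these counts. SLC35C2 and SLC35F6 fell in both seasons beside SLC35B1. SLC35C2 had medians of 0.391 and 0.541 FPKM in GV and 0.0665 and 0.0972 FPKM in MII oocytes of spring and summer (log2 fold changes −0.40 and −0.39, limma adjusted p = 0.00764 and 0.0343). Its summer result was lost without any 1 of 9 of the 12 libraries, every one but GV pool 1, GV pool 6 and MII pool 6, with an adjusted p of up to 0.0807, and was 0.0976 with the replicate block. SLC35F6 had medians of 0.185 and 0.188 FPKM in GV and 0.0335 and 0.0268 FPKM in MII oocytes (−0.19 and −0.27, limma adjusted p = 0.0118 and 0.0273), and in summer the adjusted p was 0.0517 without MII pool 2 and 0.0538 without MII pool 5. This gene too was over 0.1 FPKM only in GV libraries, and its values are a description. The abundant SLC35E3 had medians of 11.1 and 11.6 FPKM in GV and 18.1 and 14.9 FPKM in MII oocytes, with ranges that overlapped widely and log2 fold changes of 0.39 ± 0.54 and 0.50 ± 0.45 (limma adjusted p = 0.599 and 0.425).

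Of the 22 metal carriers tested, SLC39A10 and SLC39A12 rose in spring and SLC39A10, SLC30A7 and SLC31A2 in summer, and 0 fell in either season. Of all genes tested, 9.45% rose and 14.7% fell in spring and 7.67% and 23.1% in summer, and with so few carriers nothing particular to this class is read from the counts. SLC31A2, a copper carrier of internal membranes, had medians of 2.20 and 2.02 FPKM in GV and 3.91 and 3.85 FPKM in MII oocytes of spring and summer. Its log2 fold changes were 0.82 ± 0.29 and 0.65 ± 0.17 (limma adjusted p = 0.0517 and 0.0120). The zinc importer SLC39A6 had medians of 0.0315 and 0.0413 FPKM in GV and 0.0974 and 0.0806 FPKM in MII oocytes and did not pass (limma adjusted p = 0.0547 and 0.106). The zinc exporter SLC30A1 did not pass in either season, and 1 pool, spring GV pool 6, stood at 23.8 FPKM against 0.215 to 0.607 FPKM in the other 5 pools of its group.

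Vitamin and heme carriers (9 tested) had 2 that fell in spring and 3 in summer, beside 14.7% and 23.1% of all genes. SLC48A1, which moves heme out of lysosomes, ranged from 0.381 to 3.42 FPKM in spring GV and from 0.01 to 0.267 FPKM in spring MII oocytes, and from 0.350 to 2.86 FPKM and 0.01 to 0.214 FPKM in summer. The ranges did not overlap, and the log2 fold changes were −0.96 ± 0.27 and −0.83 ± 0.21 (limma adjusted p = 0.0205 and 0.01004). The spring change passed the fold threshold without spring GV pool 1, 3 or 6 (−1.09, −1.04 and −1.09). Its span overlaps HDAC7 on the other strand, and HDAC7 had group means between 0.870 and 2.97 FPKM. SLC19A1, the reduced folate carrier, had medians of 0.101 and 0.111 FPKM in GV and 0.0154 and 0.0121 FPKM in MII oocytes (log2 fold changes −0.13 and −0.14, limma adjusted p = 0.00470 and 0.00121). As it was over 0.1 FPKM only in GV libraries, these values and the class counts that include it are a description. SLC52A2 varied widely within groups, from 5.95 to 59.3 FPKM in spring GV and from 3.05 to 32.7 FPKM in summer MII oocytes, and did not pass (limma adjusted p = 0.606 and 0.303). SLC23A2, an ascorbate carrier, had a highest value of 0.0350 FPKM over all 24 libraries.

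Acid-base exchangers were low, and 1 of 8 tested fell in spring (SLC9A3) and 3 in summer (SLC9A3, SLC4A2 and SLC4A3). Of all genes tested, 14.7% and 23.1% fell. SLC9A3 and SLC4A3 were over 0.1 FPKM only in GV libraries, so the counts and their values are a description. SLC9A3, a sodium and proton exchanger, had medians of 0.170 and 0.117 FPKM in GV and 0.0317 and 0.0390 FPKM in MII oocytes, with no overlap in either season (log2 fold changes −0.18 and −0.14, limma adjusted p = 0.00156 and 0.00231). SLC4A2, the chloride and bicarbonate exchanger AE2, had medians of 0.411 and 0.257 FPKM in GV and 0.0758 and 0.0255 FPKM in MII oocytes. It fell in summer (log2 fold change −0.34, limma adjusted p = 0.000999), a result lost with all 4 groups in one fit (limma adjusted p = 0.0802). In spring, where MII pool 6 held 1.34 FPKM and the other MII pools 0.0315 to 0.180 FPKM, the log2 fold change was −0.20 (limma adjusted p = 0.439). SLC4A7, a sodium and bicarbonate carrier, had group medians between 0.0669 and 0.179 FPKM and did not pass (limma adjusted p = 0.122 and 0.111).

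The class counts that follow stand beside 14.7% of all genes that fell and 9.45% that rose in spring. In summer these shares were 23.1% and 7.67%. Organic ion carriers (12 of 23 tested) had 2 that fell in spring, SLC10A4 and SLC51B, and in summer these and SLC22A31 fell and SLC17A5 rose. SLC10A3, a relative of SLC10A4 with no settled substrate, had medians of 3.75 and 2.65 FPKM in GV and 2.15 and 1.94 FPKM in MII oocytes and did not pass (limma adjusted p = 0.446 and 0.185). The carnitine carrier SLC22A5 had group medians between 0.291 and 0.583 FPKM and did not pass. Among 13 carriers of other inorganic ions, SLC20A1 rose in both seasons and SLC24A1 fell in summer, and the anion exchanger SLC26A6, with group medians between 0.861 and 1.55 FPKM, did not pass. Of 6 nucleoside carriers tested, none passed, among them the equilibrative carriers SLC29A1 and SLC29A4 with mean levels of 1.29 and 0.916 FPKM. Of 8 lipid carriers tested, none passed in spring and 2, SLC27A1 and SLC44A3, fell in summer. Both were over 0.1 FPKM only in GV libraries, so this count is a description. The choline carrier-like SLC44A2 and SLC44A5 did not pass. Genes named for a carrier without being one (3 tested) had none that passed.

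The carriers that were named for an earlier interest in oocytes numbered 22, of which 20 were in the table and 17 were tested. In spring 3 fell (SLC2A8, SLC16A3, SLC38A3) and 2 rose (SLC16A1, SLC39A10), and in summer 4 fell (SLC2A8, SLC4A2, SLC2A1, SLC38A3) and 1 rose (SLC39A10). Of all genes tested, 14.7% fell and 9.45% rose in spring and 23.1% and 7.67% in summer. SLC38A3 was over 0.1 FPKM only in GV libraries, and nothing particular to these carriers is read from the counts. The mitochondrial family SLC25 (32 of 34 tested) had 2 genes called lower in spring and 4 in summer and none higher. Of all genes tested, 8.25% and 9.26% were called lower in spring and summer, and 3.57% and 2.2% higher. These shares also stand beside the lists that follow. Of 19 tested carriers without an SLC symbol, none was called, and 2 fell in summer, beside 23.1% of all genes that fell. Gap junction and carrier partner genes (12 of 14 tested) had 1 that was called lower in both seasons, the connexin GJA4. With so few genes nothing particular to these lists is read from the counts. GJA4 had means of 47.5 ± 40.9 and 43.4 ± 47.5 FPKM (SD, n = 6) in GV and 14.3 ± 8.37 and 10.6 ± 7.35 FPKM in MII oocytes. Its log2 fold changes were −1.36 and −1.67, with limma adjusted p = 0.118 and 0.0723.

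The next question was whether carriers differed between spring and summer oocytes of the same stage. No member was called and none had an adjusted p under 0.05, in GV oocytes (background of all genes called 0.0315%), in MII oocytes (0.042%) or in the difference of the maturation change between seasons (0.21%). Of the 146 members, 119 had a mean under 1 FPKM, where the fold threshold on the log2(FPKM + 1) scale can hardly be met. None of these was called with maturation either, so the lack of a call says little about them. At an unadjusted p under 0.05, limma gave 1 of the 146 members in GV, 2 in MII oocytes and 2 in the difference, where all 9526 genes gave 148, 201 and 171. Ranges of the 2 seasons overlapped for every one of the 146 members tested at both stages. The share over all genes is not given here, so nothing particular to carriers is read from this. Of the 5 carriers called lower with maturation, log2 differences between seasons lay between −0.04 and 0.07 in GV and between −0.14 and 0.15 in MII oocytes, with SE between 0.10 and 0.41. SLC35B1 had means of 11.3 ± 4.55 FPKM in spring and 10.4 ± 0.793 FPKM in summer GV oocytes (SD, n = 6), and 1.81 ± 0.749 and 1.67 ± 0.646 FPKM in MII oocytes.

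The members with an unadjusted p under 0.05 are named after their values were seen. In GV oocytes this was SLC11A2, an iron and proton carrier, with medians of 0.115 FPKM in spring and 0.222 FPKM in summer (limma p = 0.0388, adjusted p = 1, exact permutation p = 0.0325). In MII oocytes they were SLC2A1 and SLC35G1. SLC2A1 had medians of 0.145 FPKM in spring and 0.0660 FPKM in summer (limma p = 0.0120, adjusted p = 1, exact permutation p = 0.0173). SLC35G1, of the same family as the nucleotide sugar carriers, had medians of 0.282 and 0.199 FPKM (limma p = 0.0467, adjusted p = 1, exact permutation p = 0.0216). Each of the 3 differences was under 0.2 on the log2(FPKM + 1) scale, which understates fold changes at these levels, and lay within overlapping ranges. In the difference of the maturation change the members were SLC7A6OS and SLC35G6, and neither passed after adjustment in limma.

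**Figure D4:**
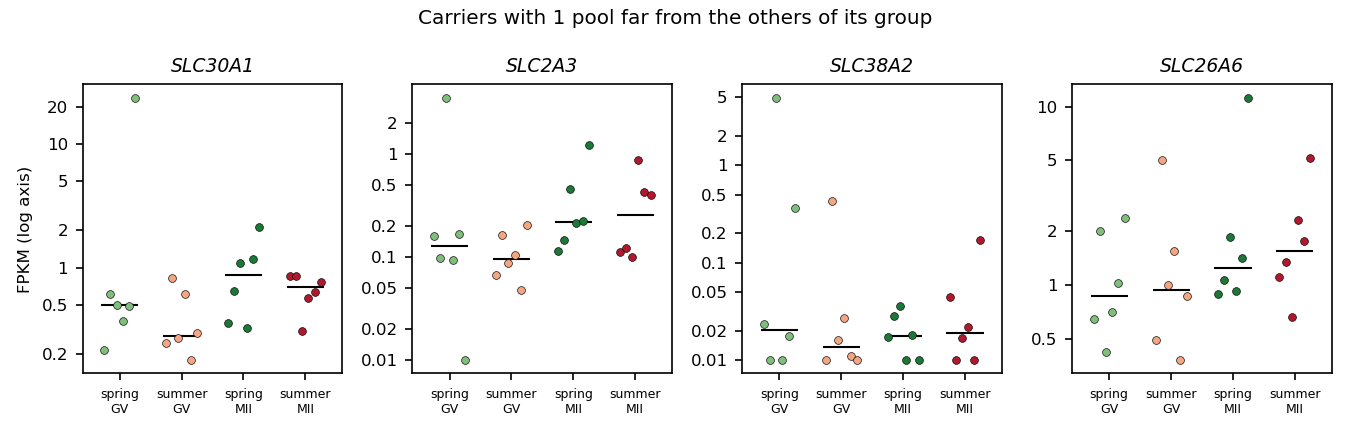
FPKM (vertical log axis, a different range in each panel) of 4 carriers in each oocyte pool, 1 point per pool in the order of pool number, in the 4 groups on the horizontal axis, with the group median as a bar. A single pool stands far above the others of its group, spring GV pool 6 at 23.8 FPKM for SLC30A1, spring GV pool 3 at 3.52 FPKM for SLC2A3 and 4.96 FPKM for SLC38A2, and spring MII pool 6 at 11.3 FPKM for SLC26A6.

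Several carriers were set by 1 pool in their group, which widened the error of the mean. SLC2A3, the glucose carrier GLUT3, was at 3.52 FPKM in spring GV pool 3 and at 0.01 to 0.168 FPKM in the other spring GV pools. SLC38A2, a neutral amino acid carrier, was at 4.96 FPKM in the same pool and at 0.01 to 0.364 FPKM in the others. That pool also held the highest summed level of cumulus cell markers, 114 FPKM against a group median of 31.9 FPKM, and the part of other cells in these values was not tested. SLC38A2 was also highest in summer GV pool 2, at 0.435 FPKM, and in summer MII pool 6, at 0.170 FPKM, the pools with the highest cumulus marker sums of their groups. In spring MII pool 6, which had the highest sum of the fourth group, it was at 0.01 FPKM, the lowest value, and the highest of that group was 0.0362 FPKM in pool 3.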

How the data were processed

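Oocyte RNA was amplified with a Smart-seq2 kit, made into Nextera XT libraries and sequenced as paired reads. The authors trimmed the reads, aligned them with STAR 2.5.3a to UMD3.1.1 (the notes write UMD3.1), and deposited FPKM values of 11306 genes, with a common total and a lowest value of 0.01 in every library, as the values show. Depth was estimated here relative to 1 library, from the steps between low values (99.9% of 11263 values within 0.1 of a whole multiple). The paper reports the reads obtained per sample, and these estimates were not set beside them. Differences in log2(FPKM + 1) over 9526 genes came from limma 3.58.1 (R 4.3.3, trend), fitted separately for MII against GV in each season and summer against spring at each stage. An interaction over the 4 groups tested whether maturation changes differed by season. The Partek software of the study was not run. Labels give the groups; each pool is 1 animal per the methods, and since the herd had fewer cows than there are pools, cows recur, and p-values take pools as independent.

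Named genes were members called the same way in both seasons or in a season comparison, the 2 most abundant members of each class and the carriers of known oocyte interest; 39 genes met this, of which 1 is not reported here, and 8 more were named after their values were seen. The members, classes and lists were chosen with earlier results of these data known. Alternatives were another pseudocount (0.1), no filter or a mean of at least 1 FPKM, quantile or median-of-ratios scaling, 1 fit over the 4 groups, a replicate block, and leaving out each library or the 3 shallow ones. No sequence is printed, as none was used here.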

Additional observations from a re-analysis of the deposited data

Results flagged for a closer look

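For the 46 named members, each of the 4 groups was examined for a pool far from the other 5, by Dixon's test. For normally distributed values chance passes it in about 1 group of 20, and FPKM values need not be so. The share over all genes is not given here, so no excess particular to these members is read from the counts. Of 184 gene and group pairs 32 passed, in 23 members, and 22 of these lay in the 4 pools with the highest summed cumulus cell markers of their group, of which summer GV pool 2 and spring MII pool 6 are also shallow. Summer GV pool 2 also had the highest oocyte marker sum of its group, 1925 FPKM. Outside spring GV the cumulus sums of these pools were largely 1 gene, STAR. The part of other cells or of depth in the values that stood apart was not tested.

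In summer GV pool 2 the values that stood apart, all the highest of their group, were SLC16A3 at 0.440 FPKM, SLC35F6 at 0.697 FPKM, SLC38A2 at 0.435 FPKM, SLC44A2 at 1.60 FPKM, SLC44A5 at 0.356 FPKM, SLC4A7 at 0.260 FPKM, SLC7A5 at 0.103 FPKM, SLC7A6OS at 5.35 FPKM and SLC9A3 at 0.243 FPKM. In spring MII pool 6 they were SLC11A2 at 1.80 FPKM, SLC26A6 at 11.3 FPKM, SLC44A2 at 0.889 FPKM, SLC44A5 at 0.788 FPKM, SLC4A2 at 1.34 FPKM, SLC4A7 at 0.628 FPKM, SLC6A4 at 0.387 FPKM and SLC7A5 at 0.0765 FPKM. Spring GV pool 3 held SLC2A3 at 3.52 FPKM and SLC38A2 at 4.96 FPKM. Summer MII pool 6 held SLC16A3 at 0.290 FPKM, SLC35C2 at 0.551 FPKM and SLC38A2 at 0.170 FPKM.

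The others were spread over pools without such marker sums. Spring GV pool 6, the shallowest library, held SLC30A1 at 23.8 FPKM and SLC7A5 at 0.947 FPKM as highest and SLC35G1 at 0.01 FPKM as lowest. Summer GV pool 3 was highest for SLC29A4 at 4.94 FPKM and SLC52A2 at 59.0 FPKM. SLC16A13 was highest in spring MII pool 1 at 2.10 FPKM, SLC22A5 in summer MII pool 4 at 1.64 FPKM, and SLC31A2 lowest in summer MII pool 3 at 1.82 FPKM. SLC35G6 was above the lowest value of 0.01 FPKM in 1 pool only of 2 groups, spring GV pool 2 at 0.0902 FPKM and summer MII pool 5 at 0.0796 FPKM. With all other pools of the group at 0.01 FPKM, any higher value passes the test.

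The maturation change differed between seasons at an unadjusted p under 0.05 in 2 members, with limma over all 24 libraries. The difference was −0.71 on the log2(FPKM + 1) scale for SLC7A6OS, whose log2 fold change was 0.47 in spring and −0.24 in summer, and −0.13 for SLC35G6, with 0.03 and −0.09. Neither held after adjustment over all genes (limma adjusted p = 0.9998 for each).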

How the results depend on the processing

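No direction of the 51 gene comparisons tested again reversed under 1063 alternatives, of which 1022 kept their side of the call thresholds, 8 lost the call (SLC39A10 in spring and SLC51B in summer) and 33 gained it. The 51 were a selection from the main results (SLC16A1 in spring and not in summer, SLC1A5 in summer and not in spring). Most alternatives left out a single library, so the lack of a reversal is not read as support. With a pseudocount of 0.1, where the median log2 fold change of all genes was −0.12 in spring and −0.13 in summer, 15 members were called lower and 5 higher in spring, 21 lower and 3 higher in summer, 1 lower by season in GV oocytes, and 1 higher in the season difference. The count called higher in spring was 0 with median-of-ratios scaling and 2 with quantile normalization or without the shallow libraries. Leaving out single libraries gave 0 to 2 called higher and 5 to 6 lower in spring, and 1 higher and 4 to 6 lower in summer. With quantile normalization 4 were called lower in summer. Of 34 results of named members with an adjusted p under 0.05, 5 lost it without some library (SLC16A3, SLC38A3 and SLC39A10 in spring, SLC35C2 and SLC35F6 in summer). The adjusted counts moved more. In spring, 5 higher became 21 with quantile normalization, 3 with median-of-ratios scaling, 14 with all 4 groups in one fit, and 16 without the shallow libraries, and leaving out single libraries gave 3 to 9. The 13 lower became 5 with a mean of at least 1 FPKM, 20 with median-of-ratios scaling, 23 with all groups in one fit and 21 without the shallow libraries (11 to 19 leaving out single libraries). In summer, 7 higher became 3 with a mean of at least 1 FPKM, 34 with quantile normalization, 12 with median-of-ratios scaling and 14 without the shallow libraries (4 to 14), and 26 lower became 5 with a mean of at least 1 FPKM (22 to 28). The causes were not tested, except that the filter on the mean tested fewer genes. Season comparisons had 0 members with an adjusted p under 0.05 under every alternative.

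Nothing in the labels says that a replicate number marks the same cow, and not every same-numbered pair correlated over 0.1, so the numbers were not used as pairs. Correlations of same-numbered libraries ranged from −0.169 to 0.535 in spring, −0.279 to 0.649 in summer, −0.322 to 0.439 in GV and −0.441 to 0.764 in MII oocytes, and 4, 4, 1 and 8 of 12 libraries correlated best with their own number. The median correlation of same-numbered against other libraries was 0.0891 against −0.0357, 0.289 against −0.0837, −0.00487 against 0.0498 and 0.551 against −0.0447, a hint from the data in summer and in MII oocytes and not from the design. With the number as a replicate block, 8 members rose and 14 fell in spring and 7 rose and 26 fell in summer by the adjusted p, and the called counts were 1 higher and 5 lower in each season. Carriers under 0.1 FPKM rest on few fragments, and in the shallow libraries differences there were not detectable at this depth.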
